A study of Mus musculus with 30 samples.

Results

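The 40 genes described here are cell cycle and DNA replication genes, listed by name for their textbook roles. The rule uses no measured value, though the list was drawn up with earlier results of these data known. All peaks that the deposited table of accessible regions assigns to one of them were taken. That gave 91 of 38526 peaks, for 38 of the 40 genes. No peak was named for Aurka or Mcm4. The RefSeq start of Aurka lies inside a peak that the table names for its neighbour Cstf1. Of the 91 peaks, 36 were promoter peaks, 35 intronic, 17 intergenic and 3 exonic, as the table classes them. Cdk6 had 20 peaks and Ccnd3 11, while 24 genes had a single one. The gene named for a distal peak is the table's assignment, and accessibility near a gene is not its expression.

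The 30 libraries are ATAC-seq, an assay that reads out open chromatin through the insertions of a transposase, of mouse natural killer (NK) cells. These were isolated from spleen and kept 5 days in culture with IL-2 plus IL15:IL15Ra. Wild-type (WT) cells came from C57BL/6J mice. The EP2/EP4-deficient cells (KO) came from GzmbCre Ptger2-/- Ptger4fl/fl mice, which lack the prostaglandin E2 (PGE2) receptor EP2 in all cells and lose EP4 where granzyme B drives Cre. No Cre is named for the WT mice, so loss of the receptors and presence of Cre cannot be told apart. In each genotype cells were left untreated or exposed to 100 ng/ml PGE2 over 5 h. Resting cells had no further stimulus, and stimulated cells were triggered through NK1.1, an activating receptor, from 1 h on, for 4 h. The groups were untreated rest (WT n = 4, KO n = 3), PGE2 at rest (WT n = 3, KO n = 4), untreated stimulation (n = 4 in each) and PGE2 with stimulation (n = 4 in each). Whether replicates of a group are separate animals or cultures is not in the labels, so each p-value reflects only how far these samples spread, possibly for technical reasons.

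Cells enter the cycle when D-type cyclins with Cdk4 and Cdk6, and then E-type cyclins with Cdk2, phosphorylate the retinoblastoma protein and release E2F factors. E2F factors switch on the genes that license and copy DNA, and a later wave of genes, controlled through CHR and CCAAT elements in their promoters, drives mitosis. Inhibitors such as p27, the product of Cdkn1b, hold the kinases back. Cultured NK cells divide under IL-2 and IL-15, and PGE2 raises cyclic AMP through EP2 and EP4, a signal known to restrain lymphocyte activation.

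Reads in peaks ranged from 8444350 to 20153816 per library, and all 91 peaks passed the filter on low values. At the targeted loci the Ptger2 promoter peak spanned 559.8 to 1109 normalised reads over the 15 WT libraries, and 83.61 to 247.3 over the 15 of the KO. The Ptger4 exon peak spanned 433.5 to 685.1 (WT) and 56.24 to 152.3 (KO). All 8 NK marker genes examined had a promoter peak. Of 7 T cell markers none had a promoter peak, and Cd3g, Cd4, Cd8a and Cd8b1 had no peak at all. Among 6 B cell, 8 myeloid and 5 erythroid markers, 1 gene of each list had a promoter peak, and 2, 3 and 3 had any peak. Over the libraries these promoter peaks held 35.3 to 99.2 (B cell), 164.8 to 311.2 (myeloid) and 48.1 to 103.1 (erythroid) normalised reads.

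E2F words are known from promoters of S-phase genes, and CHR and CCAAT words from those of mitotic genes, so a few promoters are shown before their values. RefSeq promoter windows (250 bases before to 50 bases after a start, assembly GRCm38.p6) were found for 33 of the 40 genes, and 34 windows of 31 genes had their start inside the gene's own promoter peak. The 5 below were chosen because the results return to them. Ccnb2 and Cdk1 are mitotic genes, Mcm6 is a replication gene, Cdkn1b is an inhibitor and E2f3, shown at the upstream of the starts in its peak, is an activator. Each is the 250 bases before the start, 5′ to 3′ on the strand of the gene, with capitals marking matches on either strand to E2F (TTTCCCGC, TTTCGCGC, TTTGCCGC or TTTGGCGC), CHR (TTTGAA) or CCAAT, which may overlap. No match to CRE (TGACGTCA) or AP-1 (TGANTCA) was found in these 5. The coordinates on mm10 are chr9:70421555-70421804 (minus strand), chr10:69352913-69353162 (minus), chr1:128359706-128359955 (minus), chr6:134920151-134920400 (plus) and chr13:29986064-29986313 (minus).
Ccnb2: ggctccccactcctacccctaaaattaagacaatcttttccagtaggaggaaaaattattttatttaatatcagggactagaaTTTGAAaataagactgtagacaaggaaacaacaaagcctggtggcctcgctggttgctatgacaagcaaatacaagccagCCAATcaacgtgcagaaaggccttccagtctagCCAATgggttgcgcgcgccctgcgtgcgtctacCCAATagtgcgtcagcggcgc
Cdk1: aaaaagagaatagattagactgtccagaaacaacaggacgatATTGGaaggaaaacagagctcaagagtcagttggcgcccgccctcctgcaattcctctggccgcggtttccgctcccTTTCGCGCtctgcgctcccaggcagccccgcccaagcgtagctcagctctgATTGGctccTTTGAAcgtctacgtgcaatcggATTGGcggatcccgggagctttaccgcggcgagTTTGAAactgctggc
Mcm6: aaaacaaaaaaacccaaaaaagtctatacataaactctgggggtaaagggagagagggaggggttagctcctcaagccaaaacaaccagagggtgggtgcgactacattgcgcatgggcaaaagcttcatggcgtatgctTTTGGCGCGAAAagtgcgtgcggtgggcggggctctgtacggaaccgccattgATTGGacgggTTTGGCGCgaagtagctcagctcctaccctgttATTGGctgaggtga
Cdkn1b: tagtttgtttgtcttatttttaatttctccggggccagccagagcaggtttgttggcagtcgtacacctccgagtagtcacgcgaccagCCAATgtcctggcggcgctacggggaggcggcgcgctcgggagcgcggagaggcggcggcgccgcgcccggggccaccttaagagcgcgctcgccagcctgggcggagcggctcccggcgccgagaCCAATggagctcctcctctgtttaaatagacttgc
E2f3: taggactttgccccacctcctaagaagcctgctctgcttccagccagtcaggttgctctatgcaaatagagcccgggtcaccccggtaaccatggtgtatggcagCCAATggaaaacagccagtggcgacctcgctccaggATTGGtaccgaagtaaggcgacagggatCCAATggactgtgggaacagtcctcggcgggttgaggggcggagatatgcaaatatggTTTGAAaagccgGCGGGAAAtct
The Mcm6 window held 3 E2F matches, of which the first pair overlap in 1 run of capitals, and no CHR match. The Cdk1 and E2f3 windows held both kinds.

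Over the 34 windows of 300 bases, an E2F word was found in 11 (32.4%), against 4.58% of the 11866 RefSeq windows whose start lies in any promoter peak of the table. The 11 belonged to Cdc25a, Cdc6, Cdk1, Cdk2, Cdt1, E2f2, E2f3, Mcm3, Mcm5, Mcm6 and Mcm7. CHR was found in 8 (23.5%, against 11.1%), those of Ccnb2, Cdc20, Cdk1, E2f3, Mcm2, Mki67, Plk1 and Top2a. CCAAT was found in 23 (67.6%, against 38%). CRE was found in 1, that of Mcm5 (2.94%, against 3.43%), and AP-1 in 0, against 4.26%. A match is a run of letters and was not tested as a bound site.

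Mean promoter accessibility over all 30 libraries, per kb of peak, ranged widely among the 36 genes with a promoter peak. It was highest at Ccnd3, which encodes cyclin D3 (1209 normalised reads per kb), and high at Cdk4 (1063) and at Pcna (988), the sliding clamp of the replication fork. It was lowest at Tyms, encoding thymidylate synthase (139). The median of the 36 was 421 per kb, against 344 for all 12048 promoter peaks. In 2 of the 36 promoter peaks, those of Mcm7 and Cdk6, another gene also starts.

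NK1.1 stimulation for 4 h moved most of the 91 peaks in untreated WT cells. Limma, fitted to log2(normalised count + 1) over all peaks, called 27 higher and 29 lower at a Benjamini-Hochberg adjusted p under 0.05, which is 61.5% of the members against 56.3% of all 38525 peaks tested (28.9% higher and 27.4% lower). In these bulk samples, fewer cells of a type and less signal per cell cannot be told apart. Called promoters were more often lower than higher. Of the 36 promoter peaks 5 were called higher and 17 lower (61.1%, against 41.2% of all promoter peaks, 19.5% higher and 21.7% lower), with a median log2 change of −0.17 against −0.03. In KO cells, which share no library with the WT, 26 of the 91 peaks were called higher and 34 lower (65.9%, against 54.5% of all peaks, 28.1% higher and 26.4% lower), and 3 and 21 of the promoters (66.7%, against 41.1% of all promoter peaks, 17.9% higher and 23.2% lower), with a median promoter change of −0.27 against −0.05. The change had the same sign in both genotypes at 87 of the 91 peaks (95.6%, against 88.4% of all peaks), and 0 were called in opposite directions. In both genotypes 28 were called lower (30.8%, against 21.9%) and 23 higher (25.3%, against 25.4%). Among the promoters 17 were called lower in both (47.2%, against 17.5% of all promoter peaks) and 3 higher (8.33%, against 15.3%). Same-numbered stimulated libraries of WT and KO deviated together from their group means (correlations of 0.1297 to 0.2142). The 2 genotypes are thus not fully independent of each other here.

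**Figure D1:**
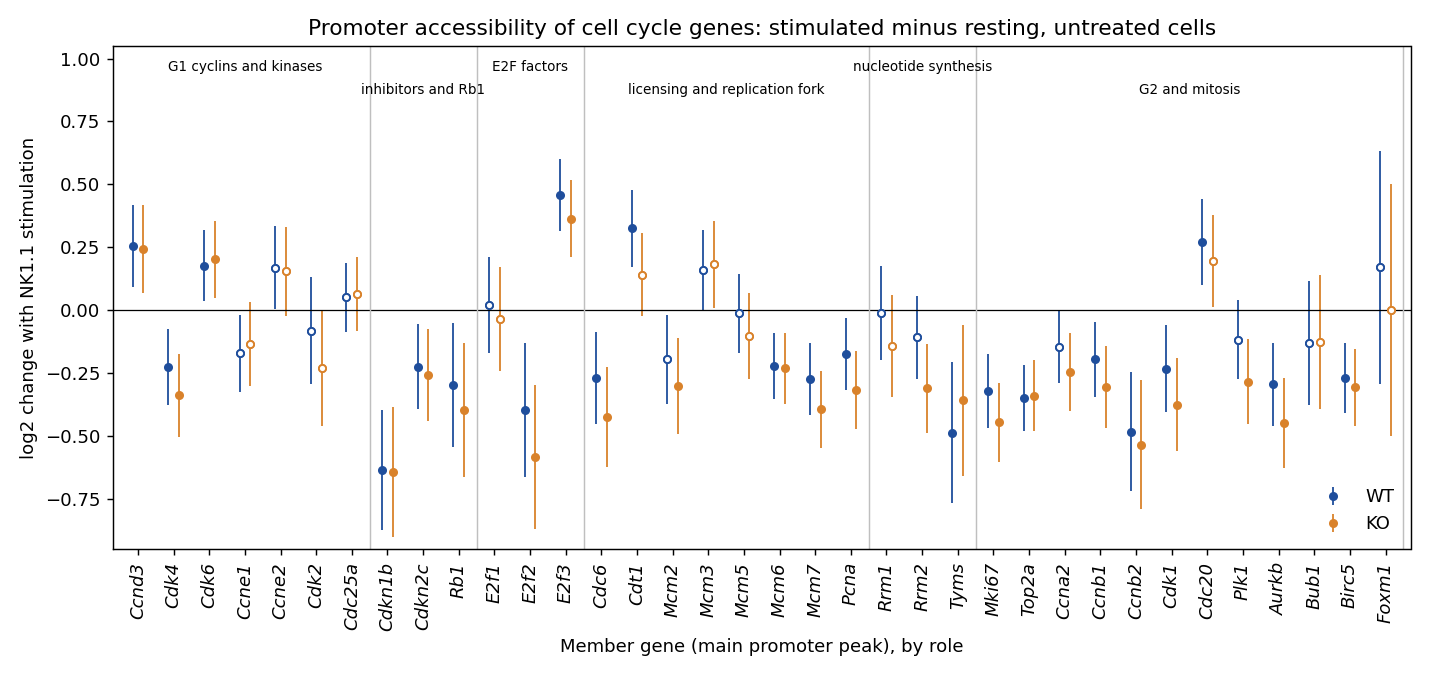
Log2 change of the main promoter peak of 36 genes with NK1.1 stimulation in untreated cells, by role, with WT in blue and KO in orange. Points are limma estimates, bars their 95% confidence intervals, filled points passed an adjusted p under 0.05 and open points did not. Most points of the replication, nucleotide and mitotic genes lie below 0 in both genotypes, Cdkn1b is lowest at −0.64 in WT, and E2f3 is highest at 0.46.

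Among the kinase inhibitors, the promoter of Cdkn1b (chromosome 6:134919696–134922035) became less accessible. Its 4 resting WT libraries held 2514, 2616, 2333 and 2360 normalised reads and its 4 stimulated ones 1641, 1683, 1470 and 1530, so that every stimulated library lay below every resting one. Such a gap between groups was seen at 52.7% of all peaks in this comparison and at 52% in the KO. The log2 change, here and below with its standard error, was −0.64 ± 0.12 (limma adjusted p = 1.73e-05). In the KO the 3 resting libraries held 2425, 1899 and 2179 and the 4 stimulated ones 1672, 1428, 1196 and 1272, again without overlap, a change of −0.64 ± 0.13 (limma adjusted p = 5.01e-05). The KO libraries numbered 1 and 2 (8444350 to 13740826 reads in peaks) lay above those numbered 3 and 4 (14611688 to 20153816) at this peak in all 4 KO groups, and the part of depth in this was not tested. Within each of those pairs of numbers the stimulated libraries were below the resting ones. The promoters of Cdkn2c, encoding the Cdk4 and Cdk6 inhibitor p18, and of Rb1, encoding the retinoblastoma protein, fell less, by 0.22 and 0.30 on the log2 scale in WT and by 0.26 and 0.40 in the KO, and all 4 changes were called. Cdkn1a, encoding the inhibitor p21, went the other way. Its only peak, which the table classes as intronic and which covers its second RefSeq start, rose from 1320 ± 72.4 (SD, n = 4) to 1623 ± 64.2 (n = 4) in WT, a change of 0.30 ± 0.07 (limma adjusted p = 0.000299), and by 0.32 ± 0.07 in the KO (limma adjusted p = 0.00041).

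The E2F factors split. The promoter peak of E2f3 (chromosome 13:29983543–29986710) held 1635, 1453, 1512 and 1594 reads in the resting WT libraries and 2480, 2057, 2034 and 1963 in the stimulated ones. All stimulated libraries were above all resting ones, with a change of 0.46 ± 0.07 (limma adjusted p = 6.64e-07), and the KO showed 0.36 ± 0.08 (limma adjusted p = 0.0001). The E2f1 promoter changed by 0.02 ± 0.09 in WT and was not called (limma adjusted p = 0.859). The E2f2 promoter fell by 0.39 on the log2 scale in WT and 0.58 in the KO, and was called in both. An intronic peak of E2f2 (chromosome 4:136189330–136190593) fell further, from 404, 330.4, 281 and 269 to 153, 134, 125 and 124 in the WT libraries, without overlap, a change of −1.24 ± 0.13 (limma adjusted p = 1.11e-10). In the KO the change there was −1.14 ± 0.14 (limma adjusted p = 5.41e-09).

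Of the 8 promoters of genes of DNA licensing and the replication fork, 4 were called lower and 1 higher in WT, and 5 lower and 0 higher in the KO, beside the same shares of all promoter peaks called lower, 21.7% and 23.2%. Mcm7 fell by 0.27 and Mcm6 by 0.22 on the log2 scale in WT, both subunits of the replicative helicase. Pcna fell by 0.17, and Cdc6, which loads the helicase, by 0.27. The Mcm6 promoter, shown above with its E2F words, held 816, 772, 795 and 768 reads in resting WT and 654, 686, 655 and 708 in stimulated WT. The groups did not overlap, although the shift of −0.22 ± 0.06 (limma adjusted p = 0.00362) is small. Cdt1, the partner of Cdc6, rose from 1021, 905, 935 and 873 to 1280, 1221, 1088 and 1094, a change of 0.33 ± 0.08 (limma adjusted p = 0.000331). In the KO it changed by 0.14 ± 0.08 and was not called (limma adjusted p = 0.141), but the difference between the genotypes was not called either (0.18 ± 0.11, limma adjusted p = 1). Of the 3 promoters of nucleotide synthesis genes, Tyms was called lower in WT (−0.49 ± 0.14) and Tyms and Rrm2, a subunit of ribonucleotide reductase, in the KO.

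Of the 12 promoters of genes of G2 and mitosis, 7 were called lower and 1 higher in WT, and 9 lower and 0 higher in the KO, where 21.7% and 23.2% of all promoter peaks were called lower in WT and KO. Ccnb2, encoding cyclin B2, held 312, 287, 342 and 308 reads in the resting WT libraries and 219.6, 213, 221 and 238 in the stimulated ones. All stimulated libraries were lower, with a change of −0.48 ± 0.12 (limma adjusted p = 0.000555) in WT and −0.53 ± 0.13 (limma adjusted p = 0.000465) in the KO. Mki67, the gene of the proliferation marker Ki-67, held 1091, 1023, 1074 and 1149 at rest and 849, 931, 856 and 836 after stimulation, again without overlap. Its change was −0.32 ± 0.07 (limma adjusted p = 0.000228) in WT and −0.44 ± 0.08 (limma adjusted p = 7.21e-06) in the KO. Top2a, encoding the topoisomerase that untangles chromosomes, fell by 0.35 and 0.34 on the log2 scale in WT and KO, Aurkb by 0.29 and 0.45, Birc5 by 0.27 and 0.31, Cdk1 by 0.23 and 0.38, and Ccnb1 by 0.19 and 0.31, all called. Cdc20, the activator of the anaphase-promoting complex, was the exception and was called higher in WT (0.27 ± 0.08). The promoters of Bub1 and Foxm1 were called in neither genotype.

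The G1 cyclins and Cdk6 had changes of more than 1 on the log2 scale at peaks outside promoters. The only peak of Ccnd2, encoding cyclin D2, is intronic (chromosome 6:127142046–127143941). It held 242, 243, 241 and 226 reads in resting WT and 595, 500.1, 477 and 494 in stimulated WT, so all 4 stimulated libraries were well above all 4 resting ones. The change was 1.11 ± 0.10 (limma adjusted p = 1.5e-12) in WT and 1.29 ± 0.10 (limma adjusted p = 2.81e-13) in the KO. Of the 11 Ccnd3 peaks, the promoter rose slightly (0.26 ± 0.08) and an intronic peak (chromosome 17:47515307–47516060) rose more, from 60.5, 80.7, 54.00 and 63.3 to 183, 180.3, 161 and 190.0 in WT. Its change was 1.47 ± 0.13 (limma adjusted p = 7.01e-12) in WT and 1.21 ± 0.14 (limma adjusted p = 4.99e-09) in the KO. A neighbouring intronic peak of Ccnd3 (chromosome 17:47526650–47528027) fell from 333, 311, 311 and 284 to 218, 198, 174 and 193, a change of −0.66 ± 0.11 (limma adjusted p = 1.9e-06). Both groups of libraries were thus apart at each of these Ccnd3 peaks, in opposite directions. An intergenic peak assigned to Ccne1, encoding cyclin E1 (chromosome 7:38094110–38094959), fell from 272 ± 35.98 to 92.7 ± 11.9 (SD, n = 4 each), a change of −1.54 ± 0.16 (limma adjusted p = 2.08e-10) in WT and −1.42 ± 0.17 (limma adjusted p = 9.13e-09) in the KO. The Ccne1 promoter changed by −0.17 ± 0.08 in WT and was not called (limma adjusted p = 0.0532). With the replicate number as a block it was called lower (limma adjusted p = 0.0372), as were the promoters of Ccna2 and Mcm2. That of Ccne2 was called higher with this block. Same-numbered libraries had correlations of 0.0156 to 0.1504 in this comparison. The promoter of Cdk4, the kinase partner that Ccnd2 and Ccnd3 share with Cdk6, fell by 0.23 on the log2 scale in WT and 0.34 in the KO, both called.

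Cdk6 stood out by number. Of its 20 peaks on chromosome 5, 15 were called higher and 2 lower with stimulation in WT, and 16 higher and 1 lower in the KO, against 28.9% of all peaks called higher in WT and 28.1% in the KO. Among all peaks outside promoters, as most of the 20 are, the shares called higher were 33.1% in WT and 32.7% in the KO. These peaks share a locus and are not independent of each other. The promoter itself, chromosome 5:3340980–3344975, moved little (0.18 ± 0.07 in WT). The changes at the other peaks varied in size and sign along the locus, which spans −197 to 173 kb from the RefSeq start. The intronic peak 151 kb downstream (chromosome 5:3494141–3495151) held 65.95, 74.8, 60.9 and 84.8 reads in resting WT and 540.4, 469, 553 and 611 in stimulated WT. Every stimulated library was far above every resting one, and the change was 2.91 ± 0.18 (limma adjusted p = 1.51e-16). In the KO the libraries went from 80.1, 138 and 106 to 571, 431, 849 and 686, a change of 2.53 ± 0.19 (limma adjusted p = 8.97e-14). The peak at 158 kb (chromosome 5:3501286–3503187) changed by 2.12 ± 0.11 and 2.06 ± 0.12 in WT and KO. The peak at 169 kb (chromosome 5:3512519–3513086) was almost closed at rest, with 9.42, 5.83, 12.8 and 15.5 reads in WT, and held 58.7, 71.8, 82.4 and 111 after stimulation, a change of 2.82 ± 0.28 (limma adjusted p = 5.13e-11). Amid these, the peak at 145 kb (chromosome 5:3488135–3489357) fell, by 0.74 in WT (limma adjusted p = 1.77e-07) and by 0.51 in the KO (limma adjusted p = 0.000288), both on the log2 scale. The sequences of these intronic peaks were not used here.

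**Figure D2:**
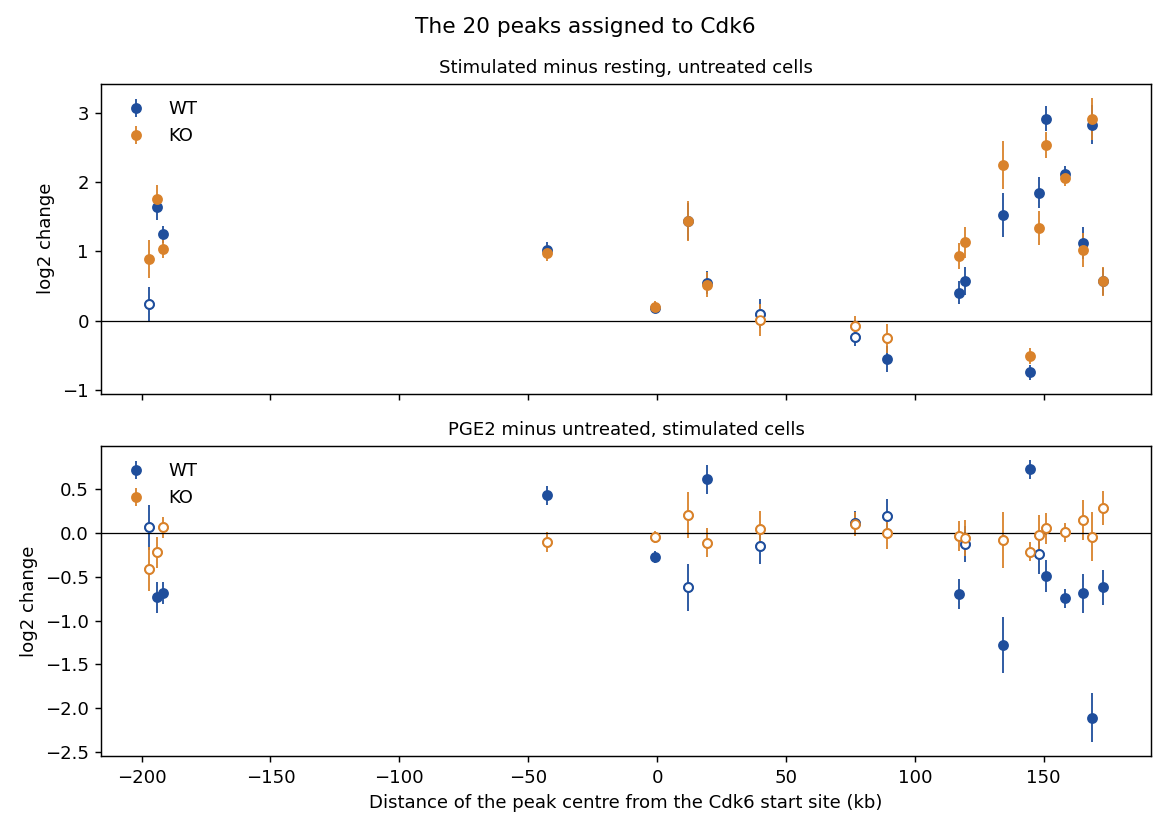
Log2 change of the 20 Cdk6 peaks against the distance of the peak centre from the RefSeq start (kb, negative upstream), with NK1.1 stimulation (top) and with PGE2 in stimulated cells (bottom), WT in blue and KO in orange. Bars are standard errors, and filled points passed an adjusted p under 0.05. The highest stimulation change in WT, 2.91, is at 151 kb, and with PGE2 only WT points are filled.

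No peak of the 91 was called for a difference between the genotypes in the stimulation change, at 2 peaks with an unadjusted p under 0.05, and 0.00779% of all peaks were called. EdgeR and DESeq2 on recovered reads called 0 members as well. The intervals allow some difference. For Ccnd2 the WT change minus the KO change was −0.18 ± 0.14 (95% interval −0.47 to 0.10), and for Cdkn1b 0.01 ± 0.17 (−0.34 to 0.36).

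With PGE2 given 1 h before and during stimulation, a smaller share of the members than of all peaks was called in WT, without a block. Limma called 11 of the 91 peaks higher and 15 lower than in stimulated cells without PGE2, which is 28.6% against 40.5% of all peaks (20.2% higher and 20.4% lower, with the libraries of both groups apart at 39.4%). Of the 36 promoters 2 were called higher (Cdkn1b and Top2a) and 3 lower (E2f3, Ccne2 and Cdk6), 13.9% against 27% of all promoter peaks. Promoters made up 39.6% of the member peaks and 31.3% of all peaks, and 46.7% of all peaks outside promoters were called. With values centred on the median of promoter peaks the split of the 91 was 17 higher and 14 lower. The share of all peaks under that scaling, or with the replicate number as a block, is not given here. A shift particular to the members cannot be read from this split. The comparison shares its untreated stimulated libraries with the stimulation contrast above, so values at the same peak are given side by side and not as separate support.

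At the Cdkn1b promoter the 4 WT libraries with PGE2 and stimulation held 2188, 2347, 1950 and 2050 reads, against 1641, 1683, 1470 and 1530 with stimulation alone. All of them were above those without PGE2, and only the highest of them reached the range of the resting libraries given above, with a change of 0.43 ± 0.12 (limma adjusted p = 0.00328). At the E2f3 promoter the libraries with PGE2 held 1530, 1461, 1477 and 1395, all below the stimulated ones without it, a change of −0.54 ± 0.07 (limma adjusted p = 9.02e-08). The Ccnd2 intronic peak held 281, 251, 256 and 268 with PGE2, all far below the untreated stimulated libraries and above the resting ones, a change of −0.96 ± 0.10 (limma adjusted p = 2.86e-10). Ccne2, encoding cyclin E2, fell at its promoter by 0.30 on the log2 scale (limma adjusted p = 0.00308). Top2a rose at its promoter from 484, 550.3, 537 and 547 to 632, 585, 595 and 571, by 0.17 ± 0.06 (limma adjusted p = 0.032), a shift that did not overlap but is small. The 8 promoters of licensing and replication fork genes changed by between −0.12 and 0.14 with PGE2, and none was called. With the replicate number as a block the E2f2 promoter was called lower with PGE2 too (−0.29 ± 0.11, limma adjusted p = 0.0287). With the number as a block within each genotype, E2f2 was called again (limma adjusted p = 0.0203). That fit also called the promoters of E2f1 lower (−0.18, adjusted p = 0.0308) and Ccnb2 higher (0.22, adjusted p = 0.0409).

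Away from promoters the E2f2 intronic peak held 203, 221, 231 and 219 reads with PGE2, all above the untreated stimulated libraries and below the resting ones, a change of 0.70 ± 0.13 (limma adjusted p = 2.29e-05). The intergenic Ccne1 peak rose from 92.7 ± 11.9 to 163 ± 19.8 (SD, n = 4 each), by 0.81 ± 0.16 (limma adjusted p = 0.000102), and an intronic peak of Cdc6 (chromosome 11:98917541–98918770) by 0.46 ± 0.11 (limma adjusted p = 0.00124). An exonic peak of Ccnd3 (chromosome 17:47597976–47598849) fell from 578, 443, 441 and 533 to 319, 302, 352 and 325, without overlap, by 0.61 on the log2 scale (limma adjusted p = 1.46e-05). An intergenic peak of Aurkb, the kinase of the chromosomal passenger complex (chromosome 11:69039889–69041836), fell from 1454, 1289, 1268 and 1225 to 984, 1002, 876 and 883, a change of −0.48 ± 0.08 (limma adjusted p = 4.21e-06). That peak had risen by 0.58 ± 0.08 with stimulation alone. An intronic peak of Rb1 (chromosome 14:73253420–73254183) was not called with stimulation and rose with PGE2, from 72.9, 65.1, 54.7 and 65.9 to 110.4, 89.2, 120.2 and 111, a change of 0.73 ± 0.18 (limma adjusted p = 0.00137).

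At Cdk6, PGE2 lowered 10 of the 20 peaks in stimulated WT cells and raised 3, against 20.4% of all peaks called lower and 20.2% higher. Outside promoters 20.6% of all peaks were called lower and 26.1% higher. The peak at 169 kb held 16.9, 21.2, 17.3 and 14.96 reads with PGE2, all far below the stimulated libraries without it and at or just above the resting range, a change of −2.11 ± 0.28 (limma adjusted p = 1.13e-07). The peak at 151 kb held 379, 355, 411 and 395, a change of −0.49 ± 0.18 (limma adjusted p = 0.0262), which left it above every resting library. The peak at 158 kb changed by −0.74 ± 0.11 and the peak at 134 kb by −1.28 ± 0.32. The peaks raised by PGE2 were those at 145 kb (0.73 ± 0.11) and 19.5 kb (0.62 ± 0.17) downstream and at −42.7 kb (0.43 ± 0.11). Peaks assigned to 1 gene thus moved both ways under the same treatment.

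In KO cells none of the 91 peaks was called for PGE2 during stimulation, with 2 at an unadjusted p under 0.05, and 0.0026% of all peaks were called. EdgeR and DESeq2 called 0 members too. At the Cdkn1b promoter the KO libraries held 1672, 1428, 1196 and 1272 without and 1824, 1694, 1104 and 1220 with PGE2. Those ranges overlap, and the change was 0.05 ± 0.12 (95% interval −0.19 to 0.29). The KO change at the Ccnd2 peak was −0.07 ± 0.10 (−0.27 to 0.12), at the E2f3 promoter −0.00 ± 0.07 (−0.15 to 0.14) and at the 169 kb Cdk6 peak −0.04 ± 0.28 (−0.61 to 0.53). The difference between the genotypes was tested itself, as the WT change minus the KO change. It was called at 14 of the 91 peaks, with the WT change above the KO change at 5 and below it at 9 (15.4%, against 20% of all peaks, 10.2% above and 9.8% below). These included the 169 kb Cdk6 peak (−2.07 ± 0.40, limma adjusted p = 0.000185), Ccnd2 (−0.89 ± 0.14, limma adjusted p = 8.08e-06), the E2f3 promoter (−0.53 ± 0.10, limma adjusted p = 0.000137) and the E2f2 intronic peak (0.95 ± 0.18, limma adjusted p = 0.000161). At the Cdkn1b promoter the difference was 0.38 ± 0.17 and was not called (limma adjusted p = 0.107). Same-numbered libraries deviated together in both genotypes here, and with the replicate number as a block the Cdkn1b difference was called (0.38 ± 0.11, limma adjusted p = 0.00746), as it was with the number as a block within each genotype (adjusted p = 0.000333). Without a block E2f3 was the only promoter of the 36 with a called difference, against 10.3% of all promoter peaks. The block within each genotype also called the Cdk6 promoter (−0.23, adjusted p = 0.0362) and the Cdc6 intronic peak (0.40, adjusted p = 0.0448). Under both blocks the Cdk6 peaks at 151 kb and 134 kb were called, with limma adjusted p of 0.0253 and 0.0249 over all libraries.

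**Figure D3:**
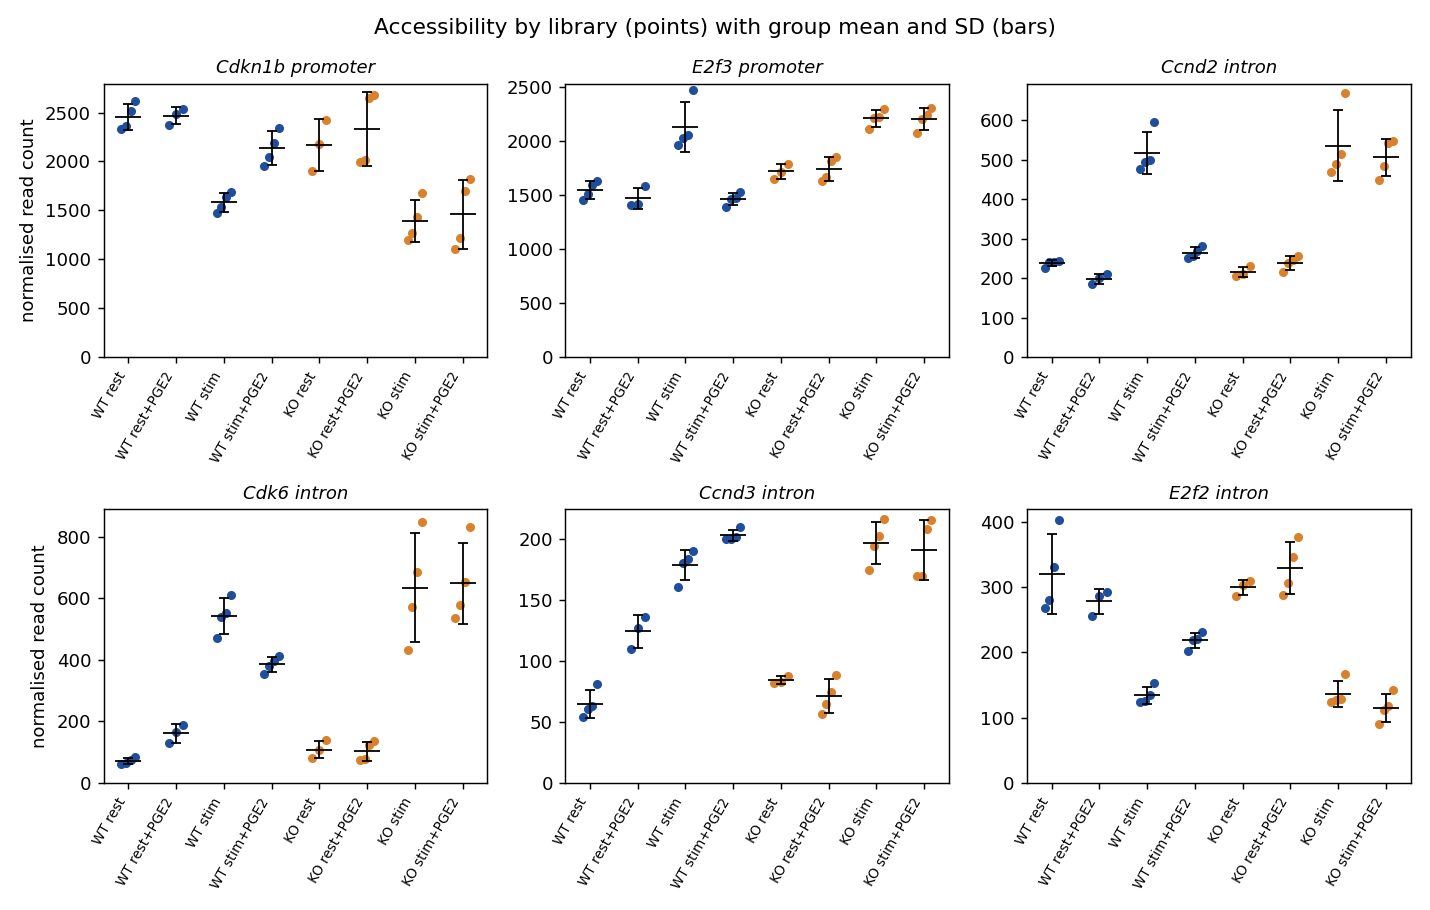
Normalised read counts of 6 peaks in each of the 30 libraries, with group means and SD as bars, WT in blue and KO in orange. Among stimulated WT libraries those with PGE2 lie apart from those without at Cdkn1b, E2f3, Ccnd2, Cdk6 and E2f2, whereas in the KO the libraries with and without PGE2 overlap in each panel. The difference between genotypes in the PGE2 change under stimulation was not called without a block at Cdkn1b or at this Cdk6 peak.

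**Figure D4:**
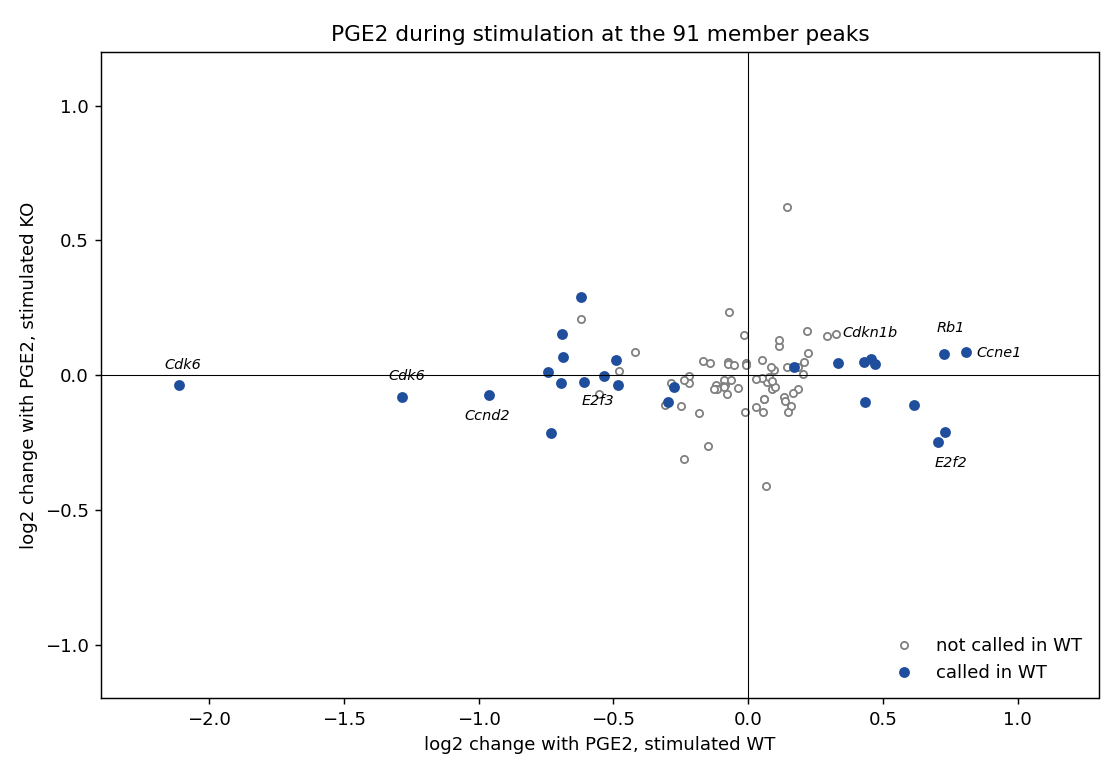
Log2 change with PGE2 in stimulated WT cells (x axis) and in stimulated KO cells (y axis) at the 91 peaks, both axes to the same scale. Filled points were called in WT, and 0 were called in the KO. The WT values spread from −2.11 to 0.81 and the KO values from −0.41 to 0.62.

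In resting WT cells 5 h of PGE2 changed 13 of the 91 peaks, 8 higher and 5 lower, which is 14.3% against 14.9% of all peaks (10.9% higher and 4.03% lower). With values centred on the median of promoter peaks the split was 9 higher and 2 lower. The share of all peaks under that scaling is again not given, so this split is not read as particular to the members. Only 1 promoter of the 36 was called, that of Birc5, encoding the mitotic regulator survivin (2.78%, against 4.69% of all promoter peaks). Its change was −0.23 ± 0.07 (limma adjusted p = 0.0354), and it was lost on leaving out any of 4 libraries, PGE2 replicates 3 or 4 or untreated replicates 1 or 2, with adjusted p between 0.0936 and 0.163. With the replicate number as a block, limma also called the promoters of Tyms (−0.46, adjusted p = 0.00668), E2f2 (−0.42, adjusted p = 0.00962) and Cdt1 (0.23, adjusted p = 0.0126). Same-numbered libraries correlated only weakly in this comparison (0.0491 to 0.0752). Cdk6 and Ccnd3 gave 8 of the 13 calls. The Cdk6 peak at 151 kb held 128, 187 and 166 reads in the 3 libraries with PGE2 at rest against 65.95, 74.8, 60.9 and 84.8 without, without overlap, a change of 1.15 ± 0.19 (limma adjusted p = 2.86e-05). The intergenic Cdk6 peak at −42.7 kb (chromosome 5:3300639–3301723) held 406, 327 and 361 against 158, 205, 182 and 196, a change of 0.98 ± 0.12 (limma adjusted p = 8.53e-08). In all, 5 Cdk6 peaks were called higher and 0 lower, where 14.8% of all peaks outside promoters were called higher and 4.74% lower. Ccnd3 rose at the intronic peak that also rose with stimulation, from 60.5, 80.7, 54.00 and 63.3 to 109.6, 136 and 127, by 0.94 ± 0.14 (limma adjusted p = 6.11e-06). It fell at the neighbouring intronic peak, from 333, 311, 311 and 284 to 232, 206 and 188, by 0.57 on the log2 scale (limma adjusted p = 0.000394). The Rb1 intronic peak rose from 71.4, 41.8, 76.6 and 54.9 to 99.2, 95.05 and 116, a change of 0.78 ± 0.20 (limma adjusted p = 0.00413), and the groups did not overlap at any of these 5 peaks, as was the case at 25.7% of all peaks.

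In resting KO cells 0 of the 91 peaks were called for PGE2 by limma, edgeR or DESeq2, with 2 at an unadjusted p under 0.05 by limma, and 0% of all peaks were called. The difference between genotypes at rest was called at 4 of the 91 peaks (4.4%, against 6.18% of all peaks). They were the Cdk6 peaks at 151 kb (1.23 ± 0.27, limma adjusted p = 0.00326) and −42.7 kb (1.02 ± 0.17, limma adjusted p = 8.53e-05) and the Ccnd3 peaks that rose (1.204 ± 0.20, limma adjusted p = 0.000122) and fell (−0.62 ± 0.16, limma adjusted p = 0.0156). The last was lost without untreated resting KO replicate 3 (adjusted p = 0.0669) or resting WT with PGE2 replicate 4 (adjusted p = 0.0635). At the Rb1 peak the difference was 0.65 ± 0.28 and was not called (limma adjusted p = 0.19). The KO libraries at the Ccnd3 intronic peak held 87.6, 82.9 and 82.02 untreated and 74.8, 64.5, 88.4 and 56.2 with PGE2, ranges that overlap.

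In the presence of PGE2, stimulation of WT cells changed 14 of the 91 peaks, 10 higher and 4 lower (15.4%, against 16.5% of all peaks, 12.7% higher and 3.8% lower). Cdk6 at 151 kb still rose, by 1.27 ± 0.19, Ccnd3 at its intronic peak by 0.71 ± 0.14 and Ccnd2 by 0.41 ± 0.10. Of the 36 promoters 2 were called, against 8.89% of all promoter peaks, both lower, those of Mki67 (−0.27 ± 0.08) and Ccne1 (−0.25 ± 0.08). The Mki67 call was lost without resting WT with PGE2 replicate 3 (−0.22, limma adjusted p = 0.101). With the replicate number as a block, 3 more promoters were called lower by limma. They were Mcm7 (−0.19, adjusted p = 0.0418), Pcna (−0.18, adjusted p = 0.0319) and Cdkn1b (−0.27, adjusted p = 0.0186). Same-numbered libraries correlated only weakly in this comparison (0.0359 to 0.0437). The PGE2 change under stimulation minus that at rest was called at 22 of the 91 peaks, 7 higher and 15 lower (24.2%, against 25.3% of all peaks, 10.6% higher and 14.7% lower). It was −1.64 ± 0.26 (limma adjusted p = 1.57e-05) at the 151 kb Cdk6 peak, where PGE2 raised accessibility at rest and lowered it in stimulated cells. At the Ccnd3 intronic peak that fell at rest it was 0.80 ± 0.16 (limma adjusted p = 0.000269). The Rb1 intronic peak rose in both states, and the difference of −0.05 ± 0.27 was not called (limma adjusted p = 0.913, 95% interval −0.60 to 0.49).

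Untreated resting KO and WT cells differed at 1 of the 91 peaks (1.1%, against 1.73% of all peaks). The promoter of Rrm2 (chromosome 12:24706742–24709049) held 875, 762, 782 and 774 reads in WT and 952, 1121 and 1092 in the KO, without overlap, a KO minus WT difference of 0.40 ± 0.09 (limma adjusted p = 0.00955). Leaving out KO replicate 3 or 4 removed the call, with 0.35 (adjusted p = 0.0935) and 0.37 (adjusted p = 0.0585), and leaving out KO replicate 2 raised the count of called members to 3. The count was 2 without stimulated untreated KO replicate 1. Of the 36 promoters 26 were higher in the KO, with a median difference of 0.12 against −0.04 over all promoter peaks. Those of Plk1 (0.28 ± 0.08, limma adjusted p = 0.071) and Cdk1 (0.27 ± 0.09, limma adjusted p = 0.121) are examples that were not called. The Cdk1 promoter held 543, 569, 599 and 547 in WT and 649.6, 711 and 689 in the KO, which do not overlap, as was the case for 14.4% of all peaks in this comparison.

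Other genes of the same pathways were taken from 3 further lists by role. With stimulation in WT, 12 of 65 peaks of other replication genes were called higher and 16 lower, 19 and 18 of 69 peaks of other mitotic genes, and 27 and 26 of 90 peaks of other G1 regulators. These are 43.1%, 53.6% and 58.9% called, against 56.3% of all peaks. With PGE2 in stimulated WT the counts were 14 and 10, 10 and 12, and 19 and 15, which are 36.9%, 31.9% and 37.8% called, against 40.5% of all peaks. In both comparisons the lists were thus near or below the share of all peaks. In the stimulated KO they were 1 and 0, 0 and 0, and 0 and 0. A few of the peaks with the smallest p follow. An intergenic peak of Gadd45b, a stress-induced regulator of growth arrest (chromosome 10:80939045–80940982), went from 141 ± 16.5 to 697 ± 103 with stimulation in WT and stood at 268 ± 15.8 with PGE2 (SD, n = 4 each). In the KO it was 154 ± 4.76 (n = 3) at rest, 663 ± 24.7 with stimulation and 647 ± 48.04 with both (n = 4 each). Its change with PGE2 in stimulated WT was −1.36 ± 0.10 (limma adjusted p = 4.53e-13), and the difference between genotypes was −1.33 ± 0.15 (limma adjusted p = 3.09e-08). The KO libraries thus rose with stimulation and stayed high with PGE2. An intronic peak of Rbl2, a retinoblastoma relative (chromosome 8:91088242–91089085), went from 65.2 ± 18.2 to 181 ± 7.003 with stimulation in WT and stood at 50.2 ± 7.70 with PGE2 (SD, n = 4 each), a PGE2 change of −1.84 ± 0.19 (limma adjusted p = 6.26e-10). An intergenic peak of Gmnn, encoding the licensing inhibitor geminin (chromosome 13:24778572–24779791), rose with PGE2 in WT in both states. It went from 184 ± 18.8 (SD, n = 4) to 420.4 ± 39.8 (n = 3) at rest and from 149 ± 23.5 to 481 ± 96.3 (n = 4 each) under stimulation.

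Prim2, encoding the large subunit of primase, held the only one of all 38525 peaks called for PGE2 in the stimulated KO, an intronic peak (chromosome 1:33578273–33579139). In WT this peak rose with PGE2 from 126 ± 13.9 (SD, n = 4) to 501 ± 36.5 (n = 3) at rest. Under stimulation it rose from 58.3 ± 14.97 to 362 ± 22.1 (n = 4 each), by 2.65 ± 0.17 (limma adjusted p = 6.49e-15). In the KO it was 141 ± 9.77 (n = 3) and 135 ± 10.2 (n = 4) at rest. Under stimulation the KO rose from 42.3 ± 4.08 to 87.4 ± 27.3 (n = 4 each), by 0.98 ± 0.17 (limma adjusted p = 0.0381). In untreated resting cells the other lists had 5 called peaks between the genotypes, all higher in the KO, 3.08%, 2.9% and 1.11% of the replication, mitotic and G1 lists against 1.73% of all peaks (1.09% higher). They were the promoters of Tk1 (0.61 ± 0.12), Uhrf1 (0.37 ± 0.09), Ndc80 (0.38 ± 0.08) and E2f8 (0.58 ± 0.11), and an intergenic peak of Nek2 (0.56 ± 0.15).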

How the data were processed

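The deposited table held 1 value per peak and library, coverage signal as whole reads per peak that the authors had divided by a size factor for each library, as its values show. Per the submitters' processing notes the tools were Trimmomatic 0.39, Bowtie2 2.4.1, MACS2 2.2.7.1 and DESeq2, on mm10. Removal of duplicates and the offset for transposase cuts are not given in the sources used here. A fit of the step that 1 read is worth (0.6628 to 1.6644) gave whole multiples in all 30 columns, of which 19 were accepted by a stricter unit check, so count tests on recovered reads were alternatives and not the main result. Sample columns were matched to groups by the labels.

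Limma 3.58.1 in R 4.3.3 was fitted with a mean-variance trend to log2(normalised count + 1), over 8 group means and the 30 libraries, for the 38525 peaks with a mean of at least 10, and p-values were adjusted by Benjamini-Hochberg over them. Fold changes are on that scale, which understates changes of low peaks. The 12 comparisons were also run with a pseudocount of 10, other filters and scalings, the replicate number as a block (over all libraries or, added after seeing the data, within each genotype), edgeR 4.0.16, DESeq2 1.42.0 and without each library. The fit was also run on simulated reads, drawn independently for each library with few changed peaks. That run does not test the fit under many changed peaks or correlated libraries, as in these data. Named in each comparison were up to 6 called members with the largest rise and up to 6 with the largest fall, 1 per gene, the main promoter peak of each member, and up to 3 called peaks from each other list by smallest p; further members given with values were picked after their values were seen. The members and gene lists were chosen with earlier results of these data known. Deviations from group means correlated above 0.1 for every same-numbered pair in 3 of the 8 comparisons of 2 groups, so the numbers were taken to pair them: PGE2 in stimulated WT (4 pairs, 0.1184 to 0.2057), in stimulated KO (4 pairs, 0.2205 to 0.5261) and in resting KO (3 pairs, 0.1163 to 0.3285).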

Additional observations from a re-analysis of the deposited data

Results flagged for a closer look

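In groups of 4 libraries, 5 of 174 checks (29 member peaks in 6 groups) found 1 library far from the others, where chance alone flags about 1 group in 20. At the E2f2 intronic peak, stimulated untreated KO replicate 1 held 166.4 normalised reads against 123.6 to 128.2 in the others. At the Ccnd2 peak, resting untreated WT replicate 4 held 225.7 against 240.5 to 243. One intronic peak of E2f3 held 248.5 in WT with PGE2 and stimulation replicate 1 against 316.8 to 323, and another held 83.61 in resting KO with PGE2 replicate 2 against 100.6 to 102.2. The Cdt1 promoter held 1113 in KO with PGE2 and stimulation replicate 1 against 1050 to 1058.

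The change with PGE2 differed between WT and KO, by a test of the difference itself (WT change minus KO change, log2, limma adjusted p below), at 11 named peaks. At rest these were Cdk6 at 151 kb (1.23, adjusted p = 0.00326), the intronic Ccnd3 peak that rose (1.204, adjusted p = 0.000122) and the one that fell (−0.62, adjusted p = 0.0156). In stimulated cells the difference was positive at E2f2 (0.95, adjusted p = 0.000161), Cdk6 at 145 kb (0.94, adjusted p = 1.61e-05) and Ccne1 (0.72, adjusted p = 0.0215). It was negative at Cdk6 at 169 kb (−2.07, adjusted p = 0.000185), Ccnd2 (−0.89, adjusted p = 8.08e-06), the Ccnd3 exonic peak (−0.58, adjusted p = 0.0047), the E2f3 promoter (−0.53, adjusted p = 0.000137) and the intergenic Aurkb peak (−0.44, adjusted p = 0.00323). The Ccne1 difference lost its call without any of 4 libraries, KO with PGE2 and stimulation replicate 3, stimulated untreated KO replicate 1, WT with PGE2 and stimulation replicate 2 or stimulated untreated WT replicate 1 (0.56 to 0.66, adjusted p 0.0502 to 0.072).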

How the results depend on the processing

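The alternatives were followed for 76 peak results, the up to 6 largest called rises and 6 largest falls of each comparison, 1 per gene. Of these 62 kept direction and call under all alternatives in which they were tested, 14 lost the call under some, and 0 reversed. Cdk6 at 169 kb was in 39 settings, as its mean was too low for the stricter filter. Other results above were not among the 76, such as Cdkn1b and Top2a with PGE2 under stimulation, and Ccnb2, Mki67 and Mcm6 promoters with stimulation in untreated cells. Counts of called members stayed within 1.5 times, with these exceptions. The KO against WT count at rest, 1, was 2 with scaling to total reads, centring on promoter peaks, the replicate block or DESeq2. The count for the difference between genotypes in PGE2 at rest, 4, was 7 with DESeq2 and with the replicate block within each genotype, and the count for PGE2 at rest in WT, 13, was 21 with that block. The causes were not tested. Leaving out 1 library gave ranges of 10 to 16 for PGE2 at rest in WT, 23 to 28 for PGE2 in stimulated WT, 51 to 57 and 52 to 61 for stimulation in WT and KO, 10 to 15 for stimulation under PGE2, 0 to 3 for KO against WT, 3 to 6 and 11 to 18 for the genotype differences in PGE2 at rest and in stimulation, 17 to 23 for the PGE2 difference between states, and 0 for the others. In 5 of the 8 comparisons of 2 groups same-numbered libraries did not all correlate above 0.1. With the replicate block over all libraries, PGE2 in stimulated WT, whose libraries the numbers pair, gave 32 called members (34 within each genotype), PGE2 in the KO 0 in both states, and its difference between genotypes in stimulation 18 (20 within each genotype), with no call of the fit without a block lost in these. Elsewhere the block gave 19 for PGE2 at rest in WT, 61 for stimulation in WT, 21 under PGE2 and 62 in the KO. With values centred on promoter peaks, stimulation under PGE2 gave 10 higher and 2 lower, and with the replicate block 12 and 9. The counts under alternatives here, and the centred splits given earlier, are of members alone. The share of all peaks under the same setting is not given beside them. A shift particular to the members can thus not be read from them. Changes at peaks of few reads, such as Cdk6 at 169 kb, are limited by depth.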
